A study of Mus musculus with 4 samples.

Results

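The interleukin-1 family and its inflammasome were followed here through 9 genes, chosen by symbol: the ligands Il1a, Il1b and Il18, the inhibitors Il1rn, Il1r2 and Il18bp, the receptor chain Il1rap, and the inflammasome genes Nlrp3 and Casp1. All 9 were found among the 32285 genes of the count tables. Single-cell RNA was counted in live CD45-positive cells sorted from digested hearts, without atria, of C57BL/6 mice; CD45 marks immune cells. The mice carried a PD1 deletion on both chromosomes (KO) or on 1 (Het), PD1 being the brake on T cells that the gene Pdcd1 encodes, and had a myocardial infarction (MI) or a sham operation at postnatal day 2, with hearts taken 7 days later. There is 1 library per group, in the order KO_MI, Het_MI, KO_sham and Het_sham. Every animal therefore carried at least 1 deleted Pdcd1 allele, and the number of animals per library is not given in the sources used here. No difference has a replicate behind it, and no test was made. Intervals are exact 95% intervals that cover counting error only.

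The libraries held 52701847 to 72002420 UMIs (unique molecular identifiers, counted RNA molecules), and 7104 cells of KO_MI, 5074 of Het_MI, 6407 of KO_sham and 5376 of Het_sham were kept. Classes were gated on marker genes, none of them 1 of the 9, and each name means a cell like that type (macrophage-like, B cell-like and so on). Pairs of libraries shared 7 to 16 cell barcodes. A UMI of a Y-linked gene was present in 1 cell of KO_MI, against 60.3% of Het_MI cells, and in 47.4% of KO_sham cells, against 40.7% of Het_sham cells, so KO_MI held next to no male cells. Pdcd1, at 29.99 CPM (UMIs per 1000000 UMIs of the class) in KO_MI T cells against 16.5 CPM in Het_MI T cells, and at 11.3 CPM in KO_sham against 5.3 CPM in Het_sham T cells, was not lower in the libraries labelled KO. The labels do not give the deleted part of the gene, and a count at its 3' end then checks nothing.

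Interleukin-1 alpha and beta are made as precursors by phagocytes and act through a receptor whose second chain is the accessory protein encoded by Il1rap. Il1b and Il18 products are cut to their active forms by caspase-1, which is switched on when the sensor NLRP3 assembles an inflammasome. The antagonist encoded by Il1rn occupies the receptor without signalling, the decoy receptor encoded by Il1r2 binds the ligand without signalling, and the protein encoded by Il18bp captures interleukin-18. In the infarcted heart of adult mice the pathway is known as an early part of inflammation.

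Il1a and Il1b lie near each other on the minus strand of chromosome 2 (GRCm38, GENCODE annotation), Il1a at chr2:129299610-129309972 and Il1b at chr2:129364570-129371139. Il1rn lies at chr2:24336853-24351494, Il1r2 at chr1:40074079-40125231, Il1rap at chr16:26581704-26730117, Il18 at chr9:50554827-50581840, Nlrp3 at chr11:59541568-59566956 and Casp1 at chr9:5298517-5307265, all on the plus strand. Il18bp lies at chr7:102014885-102018690 on the minus strand, within the span of Numa1 on the plus strand. The start regions of the members on which the results turn most are shown: Il1b and Il1rn, a ligand and its antagonist, and Il18bp. Each run covers 250 bases before and 50 bases after a start site (RefSeq, GRCm38.p6), 5′ to 3′ on the gene's strand. Capitals mark a match, on either strand, to any of 6 motifs. They were an NF-kB-like string, the interferon-stimulated response element and TTCNNNGAA (the letters read by STAT factors). The others were TGACTCA (those of AP-1 factors), TTGCNNAA (those of C/EBP factors) and the TATA box TATAAA. The NF-kB-like string differs from the NF-kB consensus, which was not searched. Il1rn has 3 listed starts, of which the later pair overlap and 1 is printed.
Il1b (chr2:129371090-129371389, minus strand): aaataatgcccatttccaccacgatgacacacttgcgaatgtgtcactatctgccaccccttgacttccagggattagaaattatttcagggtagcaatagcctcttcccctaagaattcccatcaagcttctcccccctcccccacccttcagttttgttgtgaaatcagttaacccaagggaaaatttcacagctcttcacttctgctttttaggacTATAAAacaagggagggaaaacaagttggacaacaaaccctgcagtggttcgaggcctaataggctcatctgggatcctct
Il1rn, first start (chr2:24336610-24336909, plus strand): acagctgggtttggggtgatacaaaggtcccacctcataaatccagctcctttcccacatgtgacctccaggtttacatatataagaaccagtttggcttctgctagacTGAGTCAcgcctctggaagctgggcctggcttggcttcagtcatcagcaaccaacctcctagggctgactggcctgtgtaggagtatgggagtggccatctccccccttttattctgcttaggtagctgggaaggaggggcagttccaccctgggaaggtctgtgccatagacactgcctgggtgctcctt
Il1rn, last start (chr2:24345121-24345420, plus strand): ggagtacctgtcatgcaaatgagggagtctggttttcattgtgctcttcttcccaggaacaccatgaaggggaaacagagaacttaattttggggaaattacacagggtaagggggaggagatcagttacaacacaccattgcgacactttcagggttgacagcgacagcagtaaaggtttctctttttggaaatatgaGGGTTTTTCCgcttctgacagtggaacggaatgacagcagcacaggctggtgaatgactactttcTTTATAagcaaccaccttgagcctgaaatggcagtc
Il18bp (chr7:102018183-102018482, minus strand): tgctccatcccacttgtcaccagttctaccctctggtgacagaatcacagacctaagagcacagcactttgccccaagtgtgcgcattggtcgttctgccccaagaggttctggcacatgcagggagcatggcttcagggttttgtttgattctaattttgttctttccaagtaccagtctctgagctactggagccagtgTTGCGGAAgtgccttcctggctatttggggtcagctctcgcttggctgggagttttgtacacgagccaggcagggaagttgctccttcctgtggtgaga
The sequence TATAAA began 31 bases before the start site of Il1b, and was present in 13.6% of 32851 promoters of the same length. The NF-kB-like string stood 51 bases before the last start site of Il1rn and was present in 1.63% of promoters. No match to the NF-kB consensus itself is claimed there. TGACTCA (reversed) stood 141 bases before the first start site of Il1rn and was present in 5.20% of promoters. The Il18bp window held TTGCNNAA, present in 10.8% of promoters, and neither the interferon-stimulated letters nor TTCNNNGAA, which 3.44% and 8.30% of promoters held. Its TTGCNNAA stood 49 bases before the start. None of these letters was found in the windows of Nlrp3 or Casp1. A match of letters is a description and shows no binding, and counts made at the 3' end of transcripts do not tell which start was used.

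**Figure D1:**
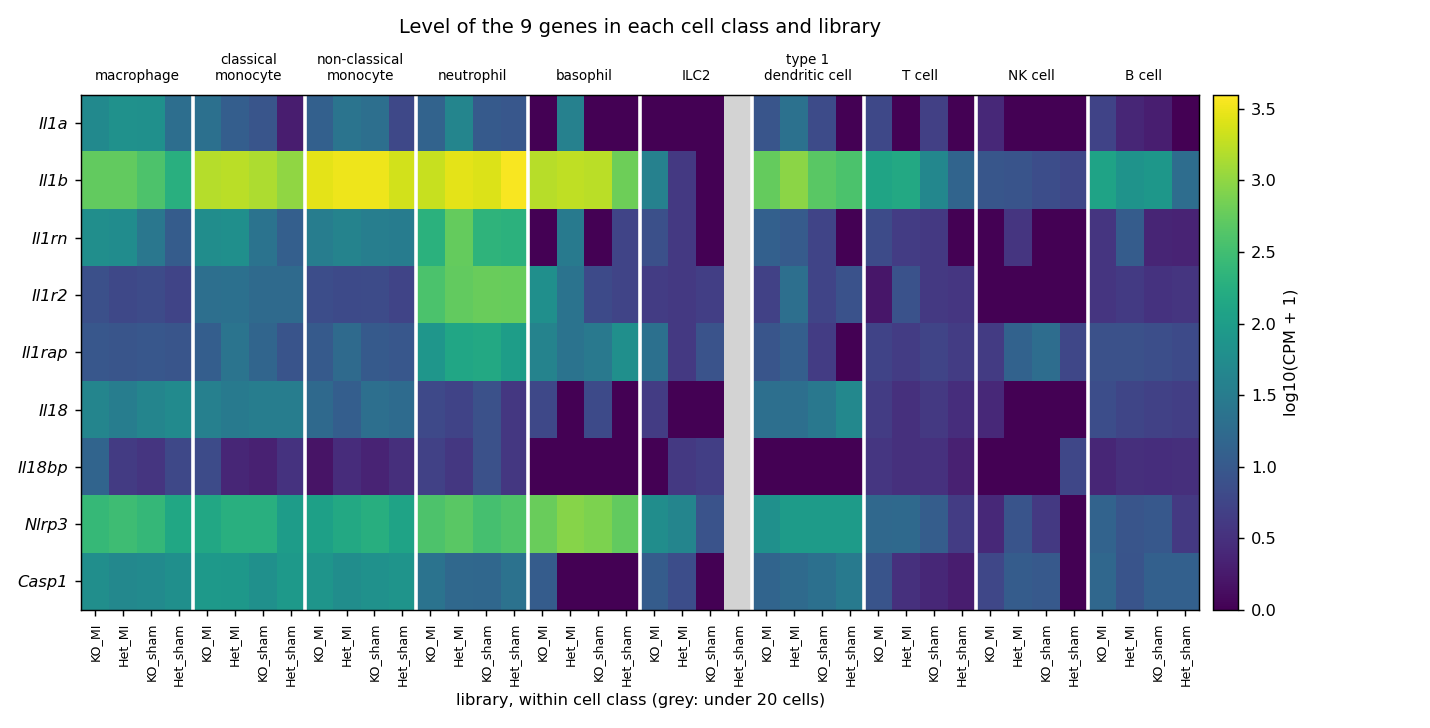
Level of the 9 genes (rows) as log10(CPM + 1) in each cell class, with the 4 libraries of a class side by side and groups of under 20 cells in grey. Il1b is high in all phagocytes and in basophils, Il1r2 stands out in neutrophils and Nlrp3 is highest in basophils. Casp1 and Il18 lie mainly in macrophages and monocytes, and Il18 also in type 1 dendritic cells.

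Il1b was a gene of all phagocytes. Among the 4 main phagocyte classes it stood highest in non-classical monocytes, the vessel-patrolling monocytes, at 2849 CPM in KO_MI, 3218 CPM in Het_MI, 3198 CPM in KO_sham and 2288 CPM in Het_sham, and in neutrophils, at 2011, 2862, 2574 and 3681 CPM in the same order. The ranges of these 2 classes overlapped. Classical monocytes followed with 1560.1, 1688, 1436 and 1019 CPM, then macrophages with 537, 542, 390.0 and 185 CPM, and the ranges of these classes did not overlap. Basophils, with 54, 28, 47 and 43 cells, carried 1627, 1777, 1710 and 629 CPM, but 1 cell held 23.4% to 29.2% of the UMIs in each library. Type 2 dendritic cells, with 18, 23, 16 and 10 cells, had 2746, 1935, 1851 and 1231 CPM.
An Il1b UMI was seen in 49.0% of KO_MI macrophages (95% interval 47.1 to 50.8), 46.7% of Het_MI, 44.6% of KO_sham and 27.9% of Het_sham macrophages. B cells, which should lack it, had one in 7.36%, 5.75%, 4.61% and 2.07% of cells, at median depths of 3211, 4178, 3840 and 3918 UMIs against 8765, 10666, 10865 and 10597 UMIs in macrophages. At 2000 UMIs per cell, drawn at random, these came to 31.7%, 28.9%, 26.2% and 15.8% of macrophages, and 4.07%, 3.13%, 1.85% and 1.48% of B cells. The macrophage shares thus lay far above the B cell background in each library, in the order of the unthinned shares.

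Il1a, whose product is active without cutting by caspase-1, was largely a macrophage gene. Macrophages held 92.4%, 94.7%, 95.2% and 92.8% of its UMIs in gated immune cells of KO_MI, Het_MI, KO_sham and Het_sham, while they were 54.2%, 53.6%, 48.1% and 33.8% of those cells. Its level there was 50.04, 66.0, 62.1 and 19.0 CPM in the same order, so Het_sham stood below the other libraries. Few cells decided it in the other classes: 1 neutrophil held 63.3% of the 30 UMIs of Het_MI neutrophils.

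Il18 behaved otherwise. In macrophages it stood at 41.8 CPM in KO_MI, 32.7 CPM in Het_MI, 42.5 CPM in KO_sham and 51.6 CPM in Het_sham, highest in the library in which Il1b was lowest. Classical monocytes had 36.2, 28.4, 32.6 and 33.0 CPM, a narrower range that overlaps that of macrophages. Non-classical monocytes carried 15.9, 11.1, 19.7 and 16.9 CPM, below both, and neutrophils had 4, 3, 5 and 2 UMIs of Il18 in all. Type 1 dendritic cells had 19.5 to 47.5 CPM over the libraries, from 10, 12, 24 and 20 UMIs, a range that overlaps those of macrophages and classical monocytes.

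**Figure D2:**
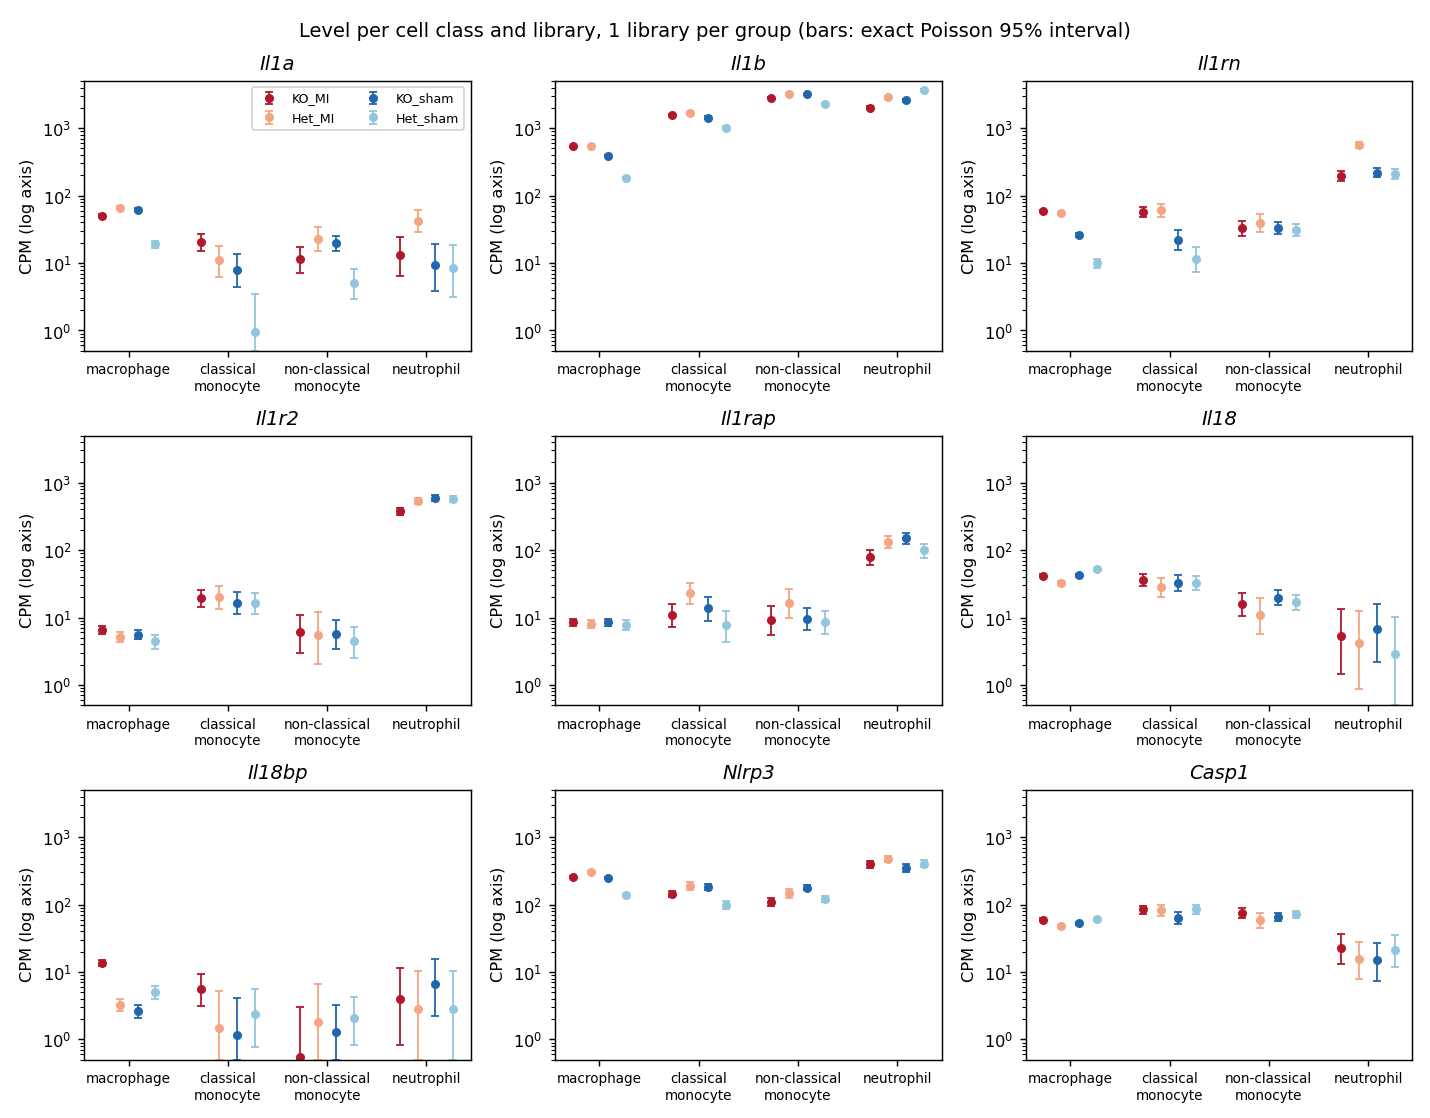
CPM on a log axis for each of the 9 genes in 4 phagocyte classes, 1 point per library with its exact Poisson 95% interval. In macrophages Il1a, Il1b, Il1rn and Nlrp3 are lowest in Het_sham, Il18bp is highest in KO_MI at 13.6 CPM, and in neutrophils Il1rn is highest in Het_MI at 557 CPM.

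Of the inhibitors, Il1rn was highest in neutrophils, and its range in macrophages overlapped those of both monocyte classes. Migratory dendritic cells of KO_MI had 57.4 CPM, from 21 UMIs in 41 cells. Neutrophils had 197 CPM in KO_MI, 557 CPM in Het_MI, 220 CPM in KO_sham and 208 CPM in Het_sham, from 149, 395, 163 and 145 UMIs, so Het_MI stood apart from 3 libraries that lay close together. Macrophages had 59.1, 55.3, 26.1 and 10.0 CPM and classical monocytes 57.1, 60.5, 22.3 and 11.5 CPM in the same order. In both classes the MI libraries lay above the sham libraries without overlap. Non-classical monocytes had 32.9, 39.6, 33.4 and 31.2 CPM, nearly level.

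Il1r2 marked neutrophils, with 380 CPM in KO_MI, 537 CPM in Het_MI, 589 CPM in KO_sham and 571 CPM in Het_sham. Classical monocytes had 16.3 to 20.4 CPM, macrophages 4.41 to 6.56 CPM and non-classical monocytes 4.46 to 6.03 CPM over the 4 libraries, so no other phagocyte class came near the neutrophil level, and the last pair of classes overlapped. With mixed droplets kept, macrophages were at 12.5, 12.7, 11.4 and 10.02 CPM and non-classical monocytes at 20.3, 13.85, 22.0 and 16.6 CPM in KO_MI, Het_MI, KO_sham and Het_sham. Neutrophils held 49.1%, 61.3%, 62.2% and 69.5% of its UMIs while being 5.0% to 5.7% of gated immune cells.
Il1rap followed the same class. Neutrophils had 78.0, 133, 150 and 98.8 CPM, against 7.76 to 8.596 CPM in macrophages, where the libraries differed by less than their counting intervals. Basophils had 40.3, 22.3, 27.1 and 62.0 CPM, from 8, 3, 5 and 14 UMIs.
Il18bp was scarce in the other phagocytes: classical monocytes had 14, 2, 2 and 5 UMIs. Migratory dendritic cells had 19.1 CPM in KO_MI, 39.7 CPM in Het_MI and 6.45 CPM in KO_sham, from 7, 6 and 1 UMIs in 41, 16 and 12 cells. Macrophages had 13.6 CPM in KO_MI (95% interval 12.4 to 15.0), 3.24 CPM in Het_MI, 2.60 CPM in KO_sham and 4.999 CPM in Het_sham, from 416, 92, 84 and 85 UMIs. KO_MI thus stood alone, and its top cell held 2.6% of those UMIs, while the top cell of Het_sham held 18.8%. Numa1, which shares the locus on the other strand, was at 57.9, 65.3, 59.5 and 59.5 CPM in the same cells, not higher in KO_MI.

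Nlrp3 was highest in basophils, at 589, 870, 776 and 545 CPM (117, 117, 143 and 123 UMIs), where 74.1% to 91.5% of cells had a UMI of it, against 1.14% to 2.95% of B cells at a similar depth. Neutrophils had 394, 474, 348 and 401 CPM, macrophages 255, 304, 252 and 140 CPM, classical monocytes 143, 188, 183 and 97.7 CPM, and non-classical monocytes 109, 148, 178 and 120.1 CPM in KO_MI, Het_MI, KO_sham and Het_sham. The ranges of basophils, neutrophils and macrophages did not overlap in that order; those of the monocytes overlapped each other and that of macrophages. Het_sham was the lowest library in basophils, macrophages and classical monocytes, KO_sham in neutrophils and KO_MI in non-classical monocytes.
Casp1 varied little. Classical monocytes had 84.5, 81.7, 63.5 and 85.2 CPM, non-classical monocytes 75.1, 58.1, 65.2 and 71.6 CPM and macrophages 59.5, 47.6, 52.4 and 60.4 CPM. Neighbouring ranges overlapped, and those of classical monocytes and macrophages did not. Neutrophils were lower at 22.5, 15.5, 14.8 and 21.5 CPM, from 11 to 17 UMIs a library. Basophils had a Casp1 UMI total of 2 in KO_MI and 0 in the other libraries, where 3 UMIs would be 13.3 to 22.3 CPM. The class with the most Nlrp3 RNA thus had next to no Casp1 RNA.

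**Figure D3:**
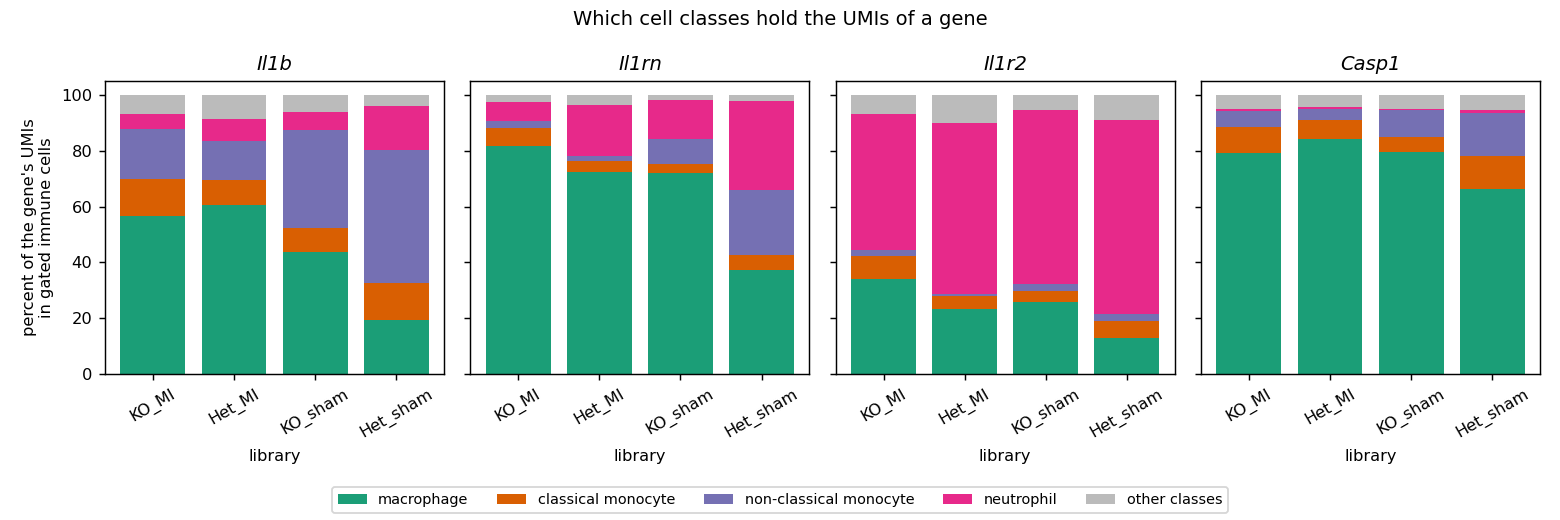
Percent of a gene's UMIs in gated immune cells that lie in each class, as stacked bars from 0 to 100%, 1 bar per library, for Il1b, Il1rn, Il1r2 and Casp1. Macrophages hold 56.5% and 60.6% of Il1b UMIs in KO_MI and Het_MI, and 43.8% and 19.4% in KO_sham and Het_sham, where non-classical monocytes hold 34.9% and 47.6%.

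Where the RNA lay in the whole sort depended on class sizes as well as on levels. Non-classical monocytes were 7.0% of gated immune cells in KO_MI, 5.1% in Het_MI, 13.1% in KO_sham and 16.5% in Het_sham, and held 17.96%, 13.7%, 34.9% and 47.6% of Il1b UMIs. Macrophages held 81.6%, 72.5%, 71.9% and 37.4% of Il1rn UMIs, and neutrophils 6.7%, 18.2%, 13.9% and 31.9%. Nlrp3 and Casp1 UMIs were mostly in macrophages, with 87.0%, 89.0%, 84.5% and 68.1% of Nlrp3 and 79.2%, 84.1%, 79.7% and 66.5% of Casp1.

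The comparison of knockout with heterozygous hearts after infarction asked how loss of the second Pdcd1 allele goes with the pathway in the injured neonatal heart. In macrophages Il18bp was 4.21-fold higher in KO_MI than in Het_MI (log2 2.07, 1.74 to 2.42), and Il1b, with a log2 ratio of −0.01 (−0.05 to 0.02), Il1rn, with 0.10, and the other 6 genes lay within 1.5-fold. In neutrophils Il1rn was 2.83-fold lower in KO_MI (log2 −1.499, −1.78 to −1.22), Il1rap had a log2 ratio of −0.76 (−1.26 to −0.28), and Il1b and Il1r2 had −0.51 and −0.50. All 6 measured genes were lower in KO_MI neutrophils, Il1a from 10 UMIs against 30 in Het_MI.
Counted by class, 1 of 9 measured members was past 1.5-fold in macrophages, against 8.14% of all genes measured there, 2 of 8 in classical monocytes (13.9% of all genes), 2 of 7 in non-classical monocytes (14.9%) and 3 of 6 in neutrophils (20.5%). A gene counted as measured with at least 30 UMIs over both libraries, so the library where it is high can by itself carry it over that line. The members' median log2 ratio was 0.10, −0.08, −0.27 and −0.64 in these classes, and that of all genes −0.11, −0.06, −0.09 and −0.14. By these medians the members lay lowest against all genes in neutrophils, with Il1a counted among the 6. Beside Il18bp, the 1 higher value was Il1a in classical monocytes (0.91), which was 0.52 with mixed droplets kept. That value, counted in the 2 of 8 and in the median, rested on 51 UMIs in KO_MI against 15 in Het_MI. It reached the 30 UMIs asked only through KO_MI. Alternatives also added higher values. Il18 in non-classical monocytes, at 0.52, was 0.62 with TMM scaling and 0.96 with mixed droplets kept. Il1rn in classical monocytes, at −0.08, was 0.70 with cells thinned. A stricter gate added lower values: Nlrp3 in classical monocytes, and Il1b, Il1r2 and Nlrp3 in neutrophils. Lower values were Il1rap in classical (−1.10) and non-classical monocytes (−0.83, −1.88 to 0.21). Il1a was lower in non-classical monocytes (−1.002, and −0.58 without the top cell of each library) and in neutrophils (−1.68, and −0.52 with mixed droplets kept). The neutrophil value of Il1a rested on 10 UMIs in KO_MI against 30 in Het_MI, most of the 30 in 1 cell. It reached the 30 UMIs asked only through Het_MI, and is counted in the 3 of 6 and in the median of −0.64.

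**Figure D4:**
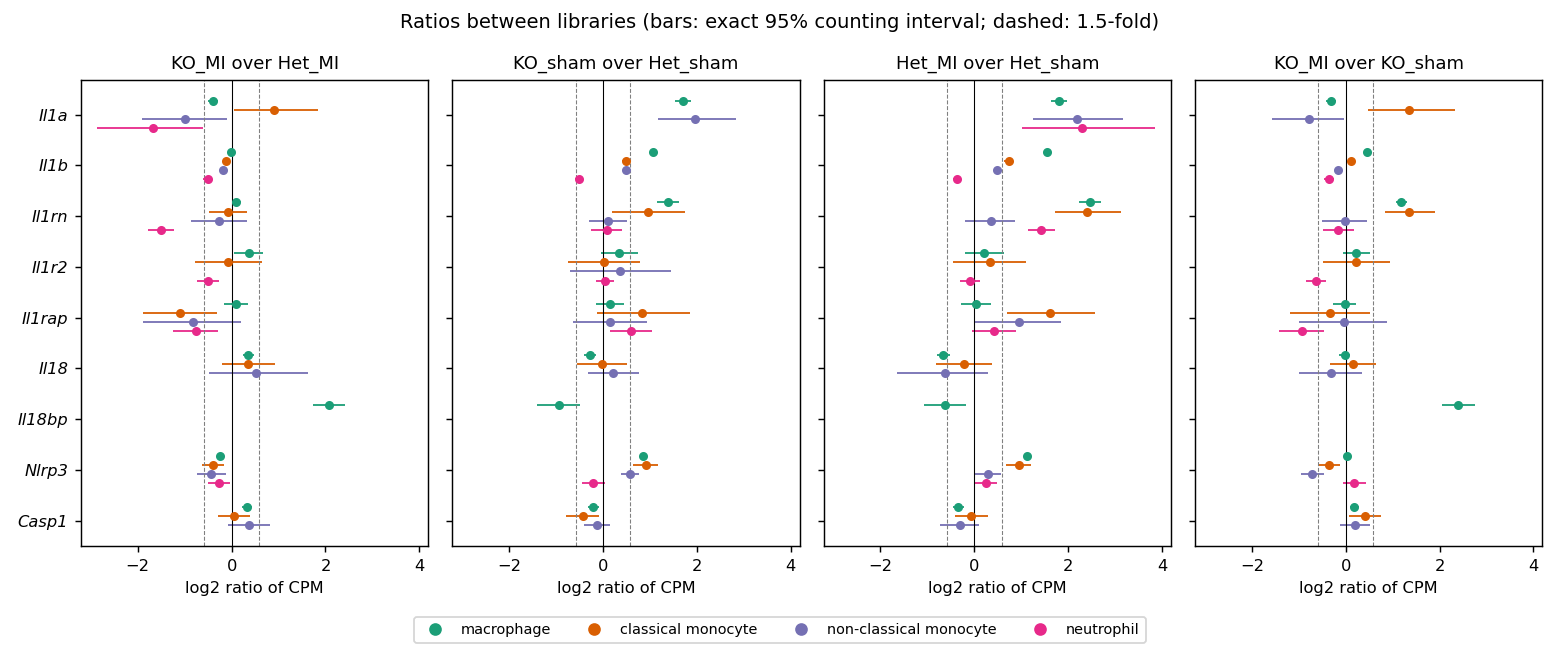
Log2 ratio of CPM between 2 libraries, 1 panel per comparison, for each gene (rows) and phagocyte class (colours), with exact 95% counting intervals; dashed lines mark 1.5-fold either way. Il18bp in macrophages lies at 2.07 for KO_MI over Het_MI and at −0.94 for KO_sham over Het_sham, and Il1rn in macrophages at 2.47 for Het_MI over Het_sham.

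Sex differed with this comparison. Among macrophages with an Xist UMI and no Y-linked UMI, which marks female cells, Il1b stood at 536 CPM in 2767 cells of KO_MI and at 324 CPM in 340 cells of Het_MI, a log2 ratio of 0.73 in place of −0.01. Il1rn was then at 0.66 and Il1r2 at 1.16, both past 1.5-fold, Il1a at 0.44 in place of −0.40, and Il18bp at 2.03, next to unchanged. In these cells Het_MI had 10 UMIs of Il1r2 and 11 of Il18bp, against 199 and 400 in KO_MI. Both genes thus reached the 30 UMIs asked only through KO_MI. The same check could not be made in neutrophils, since Het_MI had too few female-marked cells for a ratio. Il1rn was at 118 CPM in 80 female-marked neutrophils of KO_MI. It was at 498 CPM in 74 neutrophils of Het_MI with a Y-linked UMI and no Xist. The part of sex in the neutrophil ratios was not tested.
Within Het_MI, macrophages with a Y-linked UMI and no Xist had 590 CPM of Il1b, 65.3 CPM of Il1rn and 70.4 CPM of Il1a, and those with Xist and no Y-linked UMI 324, 37.5 and 36.6 CPM. Nlrp3 hardly differed, at 312 CPM and 300.4 CPM. In KO_sham Il1a and Nlrp3 ran the other way, at 58.4 and 225 CPM in Y-marked cells, against 81.5 and 303 CPM in Xist-marked cells. In Het_sham Il1a was also lower in Y-marked cells, at 17.2 against 24.8 CPM, and Nlrp3 was at 147 against 142 CPM. For Il1b in KO_sham, the split gave 381 and 328 CPM, and in Het_sham 201 and 143 CPM. The number of animals behind each sex is not known, so sex and animal cannot be told apart. The Y-marked and Xist-marked groups were 1154 and 340 of 2141 Het_MI macrophages, and the rest fell in neither group. A mark depends on finding a UMI, so the groups can differ in depth, and the part of depth was not tested.

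The same genotype comparison was made in sham hearts. Macrophages of KO_sham had more Il1a (log2 1.71), Il1rn (1.38), Il1b (1.08, 1.02 to 1.13) and Nlrp3 (0.85, 0.78 to 0.92) than those of Het_sham, and less Il18bp (−0.94, and −0.52 under a stricter gate). Il18, Casp1, Il1r2 and Il1rap lay within 1.5-fold, but Il1r2, at 0.34, was at 1.41 with cells thinned, 1.12 in female-marked cells and 0.73 without the top cell of each library. The value in female-marked cells rested on 38 UMIs in KO_sham against 9 in Het_sham. Past 1.5-fold were 5 of 9 members in macrophages, against 8.89% of all genes, 3 of 7 in classical monocytes (10.9%), 1 of 8 in non-classical monocytes (8.24%) and 1 of 5 in neutrophils (16%). The median over the members was 0.34, 0.49, 0.29 and 0.05, against −0.07, −0.03, −0.01 and −0.05 over all genes. In classical monocytes the 3 were Il1rn (0.96), Nlrp3 (0.91) and Il1rap (0.84, −0.13 to 1.85), all higher in KO_sham. Casp1, at −0.42 in these cells, was at −0.68 with cells thinned and −0.65 in female-marked cells. In non-classical monocytes it was Il1a (1.96), and Nlrp3 (0.57) lay just under the line. In neutrophils it was Il1rap at 0.60, with 0.33 with mixed droplets kept, while Il1b was at −0.52 there: the neutrophils of Het_sham had the most Il1b RNA of all 4 libraries, and its macrophages the least.

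Infarction against sham surgery was compared within each genotype. Het_MI macrophages, set against Het_sham macrophages, had 5.53-fold more Il1rn (log2 2.47, 2.24 to 2.70), with Il1a at 1.80, Il1b at 1.55 and Nlrp3 at 1.12 (1.06 to 1.19). Il18 was lower at −0.66 (−0.79 to −0.52), Casp1 lay at −0.34, and Il18bp was at −0.62, which 6 of the alternatives tried brought within 1.5-fold. The ligand, its antagonist and the sensor were thus all higher in the infarcted library while Il18 was lower.
Members past 1.5-fold were 6 of 9 in macrophages, against 13.3% of all genes, 4 of 7 in classical monocytes (13.4%), 3 of 7 in non-classical monocytes (14.6%) and 2 of 6 in neutrophils (18.8%). Their median was 0.21, 0.73, 0.35 and 0.33, against −0.07, −0.03, −0.02 and −0.10 over all genes. Classical monocytes had Il1rn at 2.40, Il1rap at 1.61, Nlrp3 at 0.95 and Il1b at 0.73, all higher after infarction. Non-classical monocytes had Il1a at 2.19, Il1rap at 0.95 and Il18 at −0.61 (−1.65 to 0.30). Neutrophils had Il1rn at 1.42 (1.15 to 1.71), Il1a at 2.30 and Il1b at −0.36. The Il1a value, counted in the 2 of 6 and in the median, rested on 30 against 6 UMIs. It reached the 30 UMIs asked only through Het_MI, where 1 cell held most of them. Among female-marked macrophages the ratio of Il1a was 0.56 in place of 1.80.

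For KO_MI over KO_sham, macrophages had Il18bp at 2.39 (2.05 to 2.75) and Il1rn at 1.18 (1.06 to 1.30), with Il1b at 0.46, Nlrp3 at 0.02 and Il1a at −0.31. Female-marked cells brought Il1b (0.71) and Il1a (−0.72) past 1.5-fold, and a stricter gate Il1b (0.61). The members past 1.5-fold were 2 of 9 in macrophages (12% of all genes), 2 of 8 in classical monocytes (12.1%), 2 of 7 in non-classical monocytes (14.7%) and 2 of 5 in neutrophils (23%). Their median was 0.18, 0.19, −0.17 and −0.36, against −0.12, −0.04, −0.10 and −0.18 over all genes. Classical monocytes had Il1rn and Il1a at 1.36, which became 0.42 for Il1rn with cells thinned and −0.07 for Il1a in female-marked cells. Casp1, at 0.41 in classical monocytes, was at 0.73 with cells thinned and 0.68 in female-marked cells. Non-classical monocytes had Il1a at −0.78 and Nlrp3 at −0.71 (−0.54 under a stricter gate), and neutrophils Il1rap at −0.94 and Il1r2 at −0.63 (−0.48 with TMM scaling). Each library serves in 2 of the 4 comparisons, so these are not independent of each other.

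Other measures moved with these ratios. The summed level of 11 early response genes such as Fos and Jun, which are known to come on during tissue digestion and were picked after the data were seen, was 6369, 7813, 6693 and 4916 CPM in macrophages and 4400, 5223, 5957 and 8388 CPM in neutrophils of KO_MI, Het_MI, KO_sham and Het_sham. Both Il1b and the sum were lowest in Het_sham in macrophages and highest in Het_sham in neutrophils. Other classes differed: classical monocytes had a sum of 3204, 3878, 4619 and 4909 CPM, non-classical monocytes 3809, 4708, 5080.1 and 5644 CPM, and B cells 1649, 2009, 2080.0 and 2310.3 CPM, each highest in Het_sham, where Il1b was lowest. In B cells Il1b UMIs amounted to 120, 70.4, 80.2 and 18.5 CPM, lowest in Het_sham as well, though 1 cell held 35.9% to 46.9% of them. Their part in the results was not tested.

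**Figure D5:**
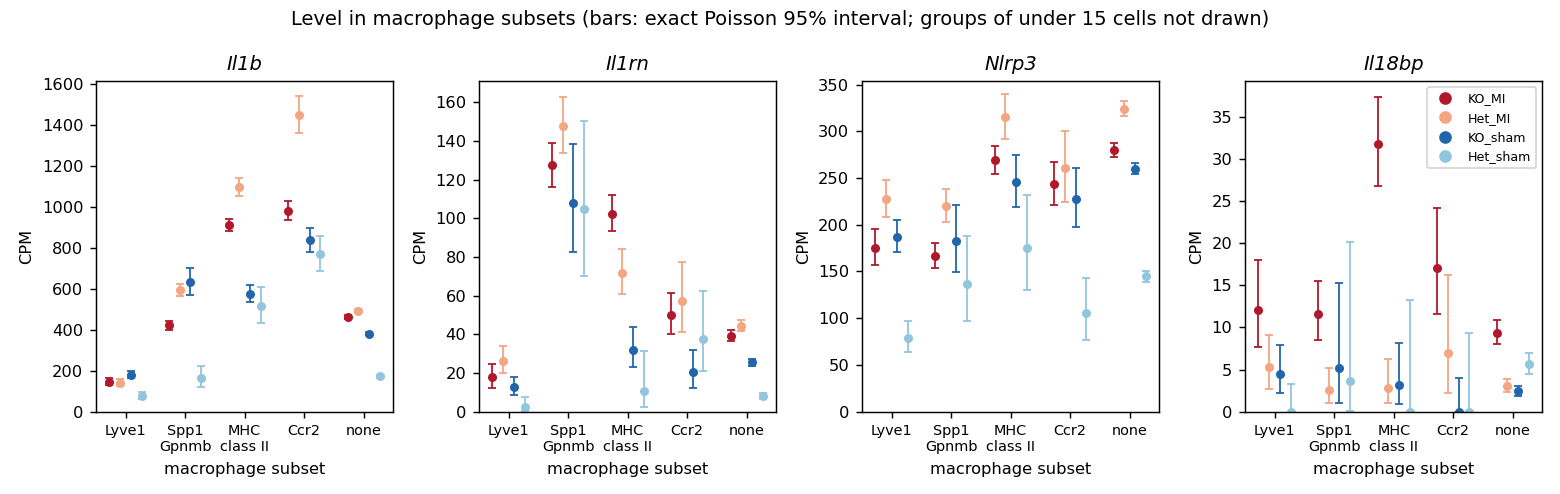
CPM of Il1b, Il1rn, Nlrp3 and Il18bp in macrophages that lead in 1 of 4 marker sets or in none, 1 point per library with exact Poisson 95% intervals, and groups of under 15 cells left out. Il1rn is at 127 CPM in KO_MI and 148 CPM in Het_MI in Spp1 Gpnmb cells, the Het_sham point there rests on 16 cells of which 1 holds 79.3% of the UMIs, and Il18bp reaches 31.8 CPM in MHC class II cells of KO_MI.

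Macrophages were not uniform. Cells that scored for MHC class II genes, used to present antigen, were 12.2% of macrophages in KO_MI, 5.09% in Het_MI, 2.62% in KO_sham and 1.30% in Het_sham, and had 911, 1097, 576 and 516 CPM of Il1b. Cells that scored for Lyve1 and other resident macrophage genes had 146, 141, 180 and 76.3 CPM, the lowest of the subsets in each library. Cells with monocyte genes around Ccr2 had 981, 1450.1, 838 and 768 CPM, the highest. The cut is on a score, and 294, 247, 242 and 113 macrophages lay near it.
Il1rn had its highest CPM in another subset, though that subset did not hold most of its UMIs. Spp1 Gpnmb cells, the lipid-associated type, had 127, 148, 108 and 105 CPM of Il1rn. The sham values rest on few cells: in KO_sham 1 of 32 cells held 30.6% of 62 UMIs, and in Het_sham 1 of 16 cells held 79.3% of 29 UMIs, against 4.06% of 493 UMIs in KO_MI and 11.2% of 410 UMIs in Het_MI. These cells were 9.50%, 7.66%, 1.27% and 1.10% of macrophages. MHC class II cells had 102, 71.7, 32.0 and 10.7 CPM, from 19 cells in Het_sham. The macrophages that led in no set, 68.5% to 89.5% of all, had 39.1, 44.3, 25.5 and 8.0 CPM. These came from 715, 907, 691 and 120 UMIs, more than Spp1 Gpnmb cells held in each library. Among the macrophages of no set the log2 ratio of Il1rn was 2.46 for Het_MI over Het_sham, next to the 2.47 over all macrophages, and 0.62 for KO_MI over KO_sham against 1.18. Il1b stood there at 1.51 and Nlrp3 at 1.17 for Het_MI over Het_sham, so the Het_MI over Het_sham ratios were as large without the cells of the 4 subsets.
Il18bp was at 31.8 CPM in MHC class II macrophages of KO_MI, from 146 UMIs in 351 cells, against 2.8 CPM in Het_MI, from 6 UMIs in 109 cells (log2 3.48, 2.33 to 4.95). In cells of no subset it was at 9.4 CPM in KO_MI and 3.0 CPM in Het_MI (log2 1.63). KO_MI was the higher of these libraries in each of the 5 groups of macrophages.

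Within macrophages thinned to equal depth, Nlrp3 was found more often in cells that had Il1b. A Nlrp3 UMI was present in 46.7% of the Il1b-positive against 26.9% of the other cells in KO_MI, 54.4% against 30.5% in Het_MI, 49.1% against 28.3% in KO_sham and 38.2% against 18.1% in Het_sham. Il1a was at 13.3% against 5.21%, 15.9% against 4.66%, 18.1% against 7.40% and 8.02% against 2.03% of cells. Casp1 was not so placed, at 10.8% against 11.4%, 9.29% against 9.05%, 11.5% against 9.66% and 9.43% against 10.9%. Il1rn was found more often with Il1b, at 12.005% against 4.57%, 14.1% against 4.46%, 7.17% against 2.15% and 6.13% against 0.970%. Il18 was not, at 7.13% against 7.83%, 5.47% against 5.54%, 6.23% against 8.66% and 10.8% against 9.52%. Cells of 1 library are not replicates, and these shares are a description.

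RNA of the receptors for these ligands lay mostly in other classes. Il1r1, the signalling receptor for both interleukin-1 ligands, was at 3.7, 18.2, 4.5 and 0.8 CPM in T cells and at or under 1.7 CPM in macrophages, monocytes and neutrophils of KO_MI, Het_MI, KO_sham and Het_sham, and B cells had 0.3 CPM in KO_MI and none in the other libraries. Il18r1, the binding chain for interleukin-18, was at 118, 189, 232 and 229 CPM in NK cells and at 252, 231, 201 and 195 CPM in basophils. Its partner chain Il18rap was at 214, 301, 247 and 210.3 CPM in NK cells, at 307, 416, 516 and 301 CPM in basophils, and at 128, 114, 113 and 103 CPM in neutrophils, which had 1.4 to 8.1 CPM of Il18r1.
Il1rl1, the receptor for interleukin-33, was at 448, 463, 483 and 384 CPM in type 2 innate lymphoid cells (44, 37, 28 and 9 cells) and at 252, 178, 239 and 221 CPM in basophils, and reached 1244, 1142, 694 and 1111 CPM in mast cells (16, 37, 15 and 9 cells). The inflammasome adaptor Pycard was at 237, 201, 231 and 261 CPM in macrophages and at 84.6, 42.3, 47.2 and 68.7 CPM in neutrophils. The pore protein gene Gsdmd was at 53.3, 42.7, 42.3 and 44.2 CPM in macrophages and at 111, 87.6, 96.0 and 101 CPM in non-classical monocytes.

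A wider list of 33 pathway genes was counted the same way. For KO_MI over Het_MI, where 8.14%, 13.9%, 14.9% and 20.5% of all genes were past 1.5-fold in macrophages, classical monocytes, non-classical monocytes and neutrophils, 2 of 31 measured were higher and 1 lower past 1.5-fold in macrophages, from Gbp2, an interferon-induced GTPase, at 78.0 against 11.7 CPM (log2 2.74, 2.57 to 2.91) to Il1rl1 at 9.81 against 16.1 CPM (−0.71). Gbp2 was also the highest in classical monocytes, at 176 against 37.2 CPM (2.24), and in non-classical monocytes, at 56.4 against 20.3 CPM (1.48). The lowest were Map3k7, a kinase downstream of the receptor, in classical monocytes (−0.70) and Nlrc4, another inflammasome sensor, in non-classical monocytes (−0.66). There, 2 of 23 were higher and 1 lower in classical and 1 of 21 higher and 1 lower in non-classical monocytes. In neutrophils 1 of 13 was higher and 2 were lower, from Pycard at 1.001 to Tollip, an inhibitory adaptor, at −0.71 (−1.84 to 0.37).
For Het_MI over Het_sham, with 13.3%, 13.4%, 14.6% and 18.8% of all genes past 1.5-fold in the same classes, 4 of 30 were higher and 2 lower in macrophages, from Il18r1 at 1.90 (56 against 9 UMIs) to Sigirr, an inhibitory receptor, at −0.61. Classical monocytes had 3 of 22 higher and 2 lower, from Gbp2 at 1.23 to P2rx7, an ATP-gated channel that triggers the inflammasome, at −1.03 (−2.30 to 0.09). Non-classical monocytes had 2 of 23 higher and 2 lower, from Mefv, which encodes the sensor pyrin, at 0.94 to Sigirr at −1.27. Neutrophils had 0 of 12 higher and 3 lower, from Casp4 at 0.50 to Nek7, a partner of NLRP3, at −1.23.
For KO_sham over Het_sham, with 8.89%, 10.9%, 8.24% and 16% of all genes past 1.5-fold, the macrophage count was 1 of 29 higher and 0 lower, classical monocytes had 1 of 22 higher and 1 lower, non-classical monocytes 2 of 25 higher and 2 lower, and neutrophils 0 of 13 higher and 1 lower. For KO_MI over KO_sham, with 12%, 12.1%, 14.7% and 23% of all genes, these were 4 of 30 higher and 1 lower, 1 of 22 and 1, 2 of 23 and 1, and 1 of 13 and 2. The median of the list in macrophages was −0.16, −0.05, 0.08 and −0.06 for KO_MI over Het_MI, KO_sham over Het_sham, Het_MI over Het_sham and KO_MI over KO_sham, against −0.11, −0.07, −0.07 and −0.12 over all genes.

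Likeness was measured as Pearson's r of log2(CPM + 10) over 29 class and library sums of at least 50 cells, against 5371 genes; these sums share libraries and lineages, and r is given as a description. Il1b was most like Clec4e (0.949), Ccl6 (0.947) and Lst1 (0.946). Il1r2 was most like Ptgs2os2 (0.979), the chemokine receptor gene Cxcr2 (0.977) and Hcar2 (0.970), and Il1rap was most like Numb (0.962), Cxcr2 (0.949) and Il1r2 itself (0.949). Cxcr2 was a gate marker of neutrophils, as was Csf3r, the best match of Il1rn. Nlrp3 was most like Lilr4b (0.973), Lilrb4a (0.955) and Hacd4 (0.949), and Il1rn like Csf3r (0.937), Clec4d (0.933) and Cd300lb (0.931). Il18 went with Cmtm3 (0.964), Vwa5a (0.958) and Grn (0.957), and Casp1 with Capza2 (0.962), Pitpna (0.957) and Cd302 (0.954). Il1a (B4galt6, 0.874) and Il18bp (Mmp12, 0.726) had the weakest best match.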

How the data were processed

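The authors deposited raw UMI counts per gene and barcode for each of 4 single-cell 3' libraries. Cell Ranger 6.1.1 and Seurat 4 are named per the submitters' processing notes, Cell Ranger 4.0.0 per the file headers, and the builds mm10 and GRCm38 per the same notes; the strand setting is not given in the sources used here. Each file belongs to 1 library, with no cell annotation used.

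Cells with at least 500 UMIs, 200 genes and at most 10% mitochondrial UMIs were kept. Each cell took the class whose markers led its score at 50% or more of that class's median; droplets with another lineage at 40% or more of its median (20.1%, 15.8%, 13.7% and 14.3% of cells in KO_MI, Het_MI, KO_sham and Het_sham) were left out as mixed. These thresholds, and a macrophage subset score of 0.4, were set after seeing the data. Scrublet (scanpy 1.11.5) called 6, 1, 0 and 139 cells by its own threshold, which does not work at that rate in 3 libraries, so calls at an assumed rate (505, 254, 460 and 344 cells) were left out as an alternative only.

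UMIs were summed per class and library, and CPM scales a gene's share of that sum to 1000000. Ratios used classes of at least 50 cells and genes of at least 30 UMIs; "past" means 1.5-fold either way. Intervals at 95% are exact Poisson, Clopper-Pearson or conditional binomial. With 1 library per group nothing was tested. TMM and median-of-ratios factors came from edgeR 4.0.16. The code was tested on simulated data.

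All 9 members were named. From 37 pathway genes (33 in the files) the highest and lowest ratio were named per class for 2 contrasts. The members and lists were chosen with earlier results of these data known. Female-marked cells in 3 further contrasts, and the 11 early response genes, were added after seeing the data.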

Additional observations from a re-analysis of the deposited data

Results flagged for a closer look

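Il18bp in macrophages had a log2 ratio of 2.07 for KO_MI over Het_MI and of −0.94 for KO_sham over Het_sham, and of 2.39 for KO_MI over KO_sham and −0.62 for Het_MI over Het_sham. The values drew attention because the same contrast ran in opposite directions after infarction and after sham surgery, and in the knockout and the heterozygous libraries. The difference between these ratios was not tested, since each rests on 1 library per group, and the 2 negative values lie within 1.5-fold under a stricter gate.

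Il1a in non-classical monocytes ran in opposite directions too, at −1.0 for KO_MI over Het_MI against 1.96 for KO_sham over Het_sham, and at −0.78 for KO_MI over KO_sham against 2.19 for Het_MI over Het_sham. The difference was not tested, and it rests on 21, 25, 62 and 17 UMIs in KO_MI, Het_MI, KO_sham and Het_sham, of which the top cell held 14.3%, 36.0%, 24.2% and 41.2%.

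Il1rap in neutrophils was at −0.76 for KO_MI over Het_MI and at 0.60 for KO_sham over Het_sham, from 59, 94, 111 and 69 UMIs; this difference was not tested either.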

How the results depend on the processing

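Members past 1.5-fold numbered 8 of 30 class-wise values for KO_MI over Het_MI, 10 of 29 for KO_sham over Het_sham, 15 of 29 for Het_MI over Het_sham and 8 of 29 for KO_MI over KO_sham. For KO_MI over Het_MI the count was 3 of 23 with at least 100 UMIs asked, since fewer values are then measured. It was 4 of 9 in female-marked cells, where only macrophages had 50 cells in both libraries. All 4 were higher in KO_MI, and Il1r2 and Il18bp among them reached the UMIs asked only through KO_MI. For Het_MI over Het_sham it was 9 of 19 with cells thinned to 2000 UMIs and 4 of 8 in female-marked cells, which again left macrophages alone. The other counts lay within 1.5 times the value given. Of all genes, 8.14% to 20.5%, 8.24% to 16%, 13.3% to 18.8% and 12% to 23% by class were past 1.5-fold in the 4 contrasts as listed; these shares were not computed under the alternatives. Of 1155 values of 117 single ratios under the alternatives, 1023 stayed within their counting interval and 131 moved beyond it. The 1023 include 117 with no UMI filter and 92 with at least 100 UMIs asked, which equal the main values by construction. A further 1 that was past 1.5-fold changed sign: Il1a in classical monocytes for KO_MI over KO_sham. It went from 1.36 to −0.068 in female-marked cells, a setting added after the data were seen. Thinning brought 14 of 91 values past 1.5-fold and 2 back within it, and a stricter gate brought 11 of 100 past and 3 back. Thinning gave Il1rn in neutrophils −2.34 for KO_MI over Het_MI and Il1a in non-classical monocytes 2.75 for KO_sham over Het_sham. A stricter gate gave Il1rn in classical monocytes 1.47 for Het_MI over Het_sham, and brought Il1b (−0.69), Il1r2 (−0.87) and Nlrp3 (−0.89) in neutrophils past 1.5-fold for KO_MI over Het_MI. The cause was not tested. With mixed droplets kept, Il1b in macrophages was 585 CPM in Het_MI, 419 CPM in KO_sham and 222 CPM in Het_sham, and stayed within its interval in KO_MI; Il1b in B cells was 208, 163, 208 and 60.6 CPM. Of 180 levels of the 9 genes, 65 moved beyond their interval with these droplets, Il1r2 in macrophages and non-classical monocytes among them. No paired analysis was possible because each group has 1 library. Depth limits what can be said of neutrophils, where 130 of 265 KO_MI cells reached 2000 UMIs, and of Il1a and Il18bp outside macrophages.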
